A study of Homo sapiens with 8 samples.

Results

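AP-1 and immediate-early genes are the first genes that cells switch on after growth factors, damage or stress, and 32 of them were examined among 19974 protein-coding genes on chromosomes 1 to 22 and X. The members were a given list of gene symbols. Each was taken with its RefSeq GRCh38 span and 5 kb on each side, and every accessible region that touched this window by at least 1 bp was counted. This gave 143 member regions out of 129052 regions in all, and 75885 of the latter lay at protein-coding genes and their 5 kb flanks. The members are short genes, with a median span of 5418 bp against 24170.5 bp for all protein-coding genes.

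The study used ATAC-seq, where a transposase inserts sequencing adapters into open DNA, to map accessible chromatin in U2OS, an established human osteosarcoma cell line. All cells were held with a double thymidine block and released for 3 h into early S phase. Under this shared schedule, control siRNA (siGl3) or siRNA against Orc6, a subunit of the origin recognition complex, had acted for 72 h. Cells were then harvested without treatment or following exposure to H2O2, an oxidant, at 5 mM for 30 min, which gave 4 conditions with 2 libraries each, numbered as batch 1 and batch 2. The labels give the cell line with no clone and no measure of the remaining Orc6. Each condition had 1 deposited peak list that names both libraries, so no spread between libraries could be computed and no test between conditions was possible. All shares below are descriptions, with Wilson 95% intervals for counting error alone, computed as if neighbouring regions were independent. Whether the 2 libraries per condition were separate cultures is not stated in the labels.

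Immediate-early genes need no new protein synthesis for their induction, because the factors that drive them are already present in the cell. SRF with its ternary complex partners, and CREB-type factors, receive signals from MAP kinases and switch on FOS, EGR1 and related genes within minutes. FOS and JUN family proteins then pair through leucine zippers to form AP-1, while DUSP phosphatases and ZFP36 shorten the response. In bulk chromatin, fewer cells with an open site and a lower accessibility per cell cannot be told apart.

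The promoters of 7 members are printed because their regions carry the results below on H2O2 or hold the elements through which early response genes are known to be read. Sequences are the 250 bases before the outermost annotated start, 5′ to 3′ on the gene strand, from RefSeq GRCh38.p14, and capitals mark the motifs named with each gene. Promoter entries were matched for 23 of the 32 members. MCL1, NR4A2, IER3, MAFK, EGR3, DUSP4, KLF10, DUSP5 and FOSL1 had no entry. FOS, JUNB and FOSB, which encode AP-1 subunits, lie on the + strand at chr14:75278578-75278827, chr19:12791236-12791485 and chr19:45467746-45467995, and their capitals mark a TATA box (TATAAA).
FOS: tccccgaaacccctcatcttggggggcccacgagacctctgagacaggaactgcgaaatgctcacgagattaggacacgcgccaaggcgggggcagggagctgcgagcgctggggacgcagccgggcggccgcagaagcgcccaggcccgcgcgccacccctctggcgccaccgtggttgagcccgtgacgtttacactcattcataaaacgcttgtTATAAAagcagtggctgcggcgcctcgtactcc
JUNB: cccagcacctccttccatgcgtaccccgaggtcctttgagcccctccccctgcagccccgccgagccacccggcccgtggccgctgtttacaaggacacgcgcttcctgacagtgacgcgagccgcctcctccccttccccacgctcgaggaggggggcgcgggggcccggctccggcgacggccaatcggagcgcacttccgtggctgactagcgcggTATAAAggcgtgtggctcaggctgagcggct
FOSB: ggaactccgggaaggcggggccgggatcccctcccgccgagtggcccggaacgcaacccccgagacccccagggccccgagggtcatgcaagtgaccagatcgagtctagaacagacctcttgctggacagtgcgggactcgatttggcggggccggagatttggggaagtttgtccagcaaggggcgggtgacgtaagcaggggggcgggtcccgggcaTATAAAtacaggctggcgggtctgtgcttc
EGR1, a zinc finger factor, and SRF, the serum response factor, lie on the + strand at chr5:138465229-138465478 and chr6:43171019-43171268. Capitals mark CArG boxes, the element bound by SRF, and in SRF also an EGR element (GCGGGGGCG).
EGR1: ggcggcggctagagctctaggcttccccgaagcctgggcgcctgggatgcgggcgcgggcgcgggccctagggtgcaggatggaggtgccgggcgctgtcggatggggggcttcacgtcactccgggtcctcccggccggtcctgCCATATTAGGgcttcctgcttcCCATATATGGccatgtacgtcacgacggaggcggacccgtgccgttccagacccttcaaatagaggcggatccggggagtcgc
SRF: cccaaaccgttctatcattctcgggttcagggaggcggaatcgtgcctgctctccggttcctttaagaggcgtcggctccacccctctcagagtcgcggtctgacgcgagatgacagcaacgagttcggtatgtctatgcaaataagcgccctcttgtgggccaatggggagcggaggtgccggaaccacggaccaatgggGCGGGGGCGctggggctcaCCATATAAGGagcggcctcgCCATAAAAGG
DUSP1, a MAP kinase phosphatase, lies on the - strand at chr5:172771196-172771445, and PPP1R15A, which encodes a phosphatase subunit of the integrated stress response, on the + strand at chr19:48872171-48872420. Capitals mark the cAMP response element (TGACGTCA) and the TATA box.
DUSP1: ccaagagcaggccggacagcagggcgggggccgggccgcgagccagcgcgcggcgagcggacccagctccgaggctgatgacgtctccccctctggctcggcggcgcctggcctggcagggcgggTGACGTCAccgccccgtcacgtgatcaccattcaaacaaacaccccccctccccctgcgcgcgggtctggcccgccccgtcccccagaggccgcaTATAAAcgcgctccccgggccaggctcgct
PPP1R15A: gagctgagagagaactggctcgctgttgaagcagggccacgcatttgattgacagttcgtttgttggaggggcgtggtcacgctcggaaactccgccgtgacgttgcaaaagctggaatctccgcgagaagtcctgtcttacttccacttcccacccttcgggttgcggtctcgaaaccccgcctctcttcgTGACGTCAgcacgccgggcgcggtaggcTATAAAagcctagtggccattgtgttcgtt

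Motifs were counted in the 300 bases from 250 before to 50 after the start, on both strands apart from the TATA box, which was read on the gene strand, and no motifs of the members overlapped. The base before the start is numbered -1. EGR1 had 2 CArG boxes, at -105 to -96 and -83 to -74, and SRF had 2, at -30 to -21 and -10 to -1. No other member with an entry had a CArG box within these 300 bases. The box thus stood in 2 of 23 (8.70%, interval 2.42 to 26.8%), against 1.22% of 13793 promoters of protein-coding genes. The cAMP element stood in DUSP1, JUND and PPP1R15A, which is 3 of 23 (13.0%, interval 4.54 to 32.1%) against 2.70%. The TATA box stood in DUSP1, BTG1, FOS, JUNB, FOSB and PPP1R15A, which is 6 of 23 (26.1%, interval 12.5 to 46.5%) against 7.24%. EGR elements, searched as GCGGGGGCG and GCGTGGGCG, stood in BTG2, SRF, KLF6 and KLF2. That is 4 of 23 (17.4%, interval 6.98 to 37.1%) against 7.54%, so the interval holds the background. The AP-1 element TGACTCA stood in 1 member, FOSL2 (4.35% against 3.65%), at bases 4 to 10 after the start. A match is a run of letters and does not show binding. Bases further from the start were not searched, so the absence of a motif holds for this window alone.

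The 4 lists held 115292 peaks in untreated siGl3, 103674 in siGl3 with H2O2, 109304 in untreated siOrc6 and 97816 in siOrc6 with H2O2. They covered 62.8 to 70.6 Mb, with less covered in both H2O2 lists, and read depth is unknown from these files. Peak signal, the value the authors' caller gave each peak, is used below only as a percentile within its own list. It goes with peak width, with a Spearman rho across peaks of 0.842 to 0.882, so a high percentile partly reads a wide peak. Percentiles of lists that differ in length are set side by side, and no change is read from them. Of 10 mesenchymal and osteoblast markers, 7 had a peak within 1 kb of the start in all 4 lists, and ALPL and TWIST1 had none. The counts were 4 of 6 for epithelial markers, where CDH1 and ESRP1 had none, and 3 of 5 for neuronal and glial markers, where GFAP and RBFOX3 had none.

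Of the 32 members, 27 had a peak within 1 kb of the start in all 4 lists (84.4%), against 64.4% of protein-coding genes. Where no strand was given, either gene end counted as the start. All 7 AP-1 subunit genes, all 3 NR4A genes and all 5 genes of the growth restraint, RNA decay, survival and stress group (BTG1, BTG2, ZFP36, MCL1 and PPP1R15A) were among them. ATF3, DUSP4, DUSP6, IER3 and KLF4 had no such peak. ATF3, a stress-induced bZIP factor, has several annotated starts, and its strongest peak lay deep in its span (chr1:212607907-212610112), at percentiles 98.9, 99.4, 98.7 and 99.1 in untreated siGl3, siGl3 with H2O2, untreated siOrc6 and siOrc6 with H2O2. DUSP4, a MAP kinase phosphatase, had 2 regions in its body. DUSP6, which acts on ERK, had none within 5 kb, and the nearest regions lay 18.1 kb above and 121 kb below it. IER3 lies in a stretch with no region for 1800 kb below and 2740 kb above it, which holds 168 protein-coding genes, so nothing can be read for IER3 from these lists. In all, 2 of 32 members (6.25%) had no region, against 13.5% of protein-coding genes.

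The percentile of the strongest start peak was high in most members and is given in the same order of lists throughout. FOSL2, a FOS-family subunit, stood at 99.97, 99.96, 99.96 and 99.95, JUN at 99.9 in all 4, and FOS at 99.3, 99.7, 99.5 and 99.7. Among the other subunits the values were 97.6, 98.4, 98.1 and 98.7 for FOSB, 99.2, 99.1, 99.4 and 99.3 for FOSL1, 96.9, 97.7, 97.0 and 99.8 for JUNB, and 91.1, 95.1, 93.8 and 95.1 for JUND. FOSL1 has no strand, and its values came from a gene-end region within 1 kb of another gene's start. The region at its other end stood at 97.6, 98.6, 98.6 and 98.5. The subunit genes therefore sat above the 90th percentile of every list, with JUND lowest in each. Beside FOSL2 and JUN, the highest in untreated siGl3 were EGR1 (99.96, 99.98, 99.91 and 99.97), KLF10, a zinc finger factor of the TGF-beta response (99.96, 99.97, 99.95 and 99.95), and MAFK, a small MAF partner of bZIP factors (99.9 in all 4).

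The lowest members were KLF2 and KLF6, Krüppel-like zinc finger factors, EGR2, ZFP36, which speeds the decay of unstable mRNAs, and NR4A2, an orphan nuclear receptor. KLF2 stood at 66.8, 85.2, 76.4 and 83.0 and KLF6 at 73.5, 80.8, 73.2 and 78.9. EGR2 stood at 66.9, 47.1, 45.8 and 55.0. Its main region only reached the edge of the 1 kb window, and the strongest peaks of that region stood at 78.1, 90.8, 83.6 and 79.2. ZFP36 stood at 84.0, 91.2, 82.6 and 94.8 and NR4A2 at 89.5, 90.1, 93.4 and 92.1. These 5 genes were lowest in untreated siGl3. DUSP5, which has no strand, stood at 92.8, 91.0, 47.6 and 90.02, read from either gene end. In untreated siOrc6 its stronger gene-end peaks, at 84.1 and 86.1, lay outside the 1 kb windows. The 47.6 belongs to a weaker peak beside them and does not show a weak start. At or above the 90th percentile were 22, 24, 22 and 24 of the 27 members. The 37 start regions of members that were in all 4 lists had median percentiles of 95.7, 96.8, 95.9 and 96.3, against 86.1, 88.1, 87.5 and 88.2 for 12606 start regions of protein-coding genes, with either end counted for genes without strand in both sets. Ranked by signal per bp, an alternative added after seeing the data, the medians were 79.7, 84.5, 85.1 and 86.1 against 76.0, 79.5, 79.0 and 80.6, so the gap was smaller once width was divided out.

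**Figure D1:**
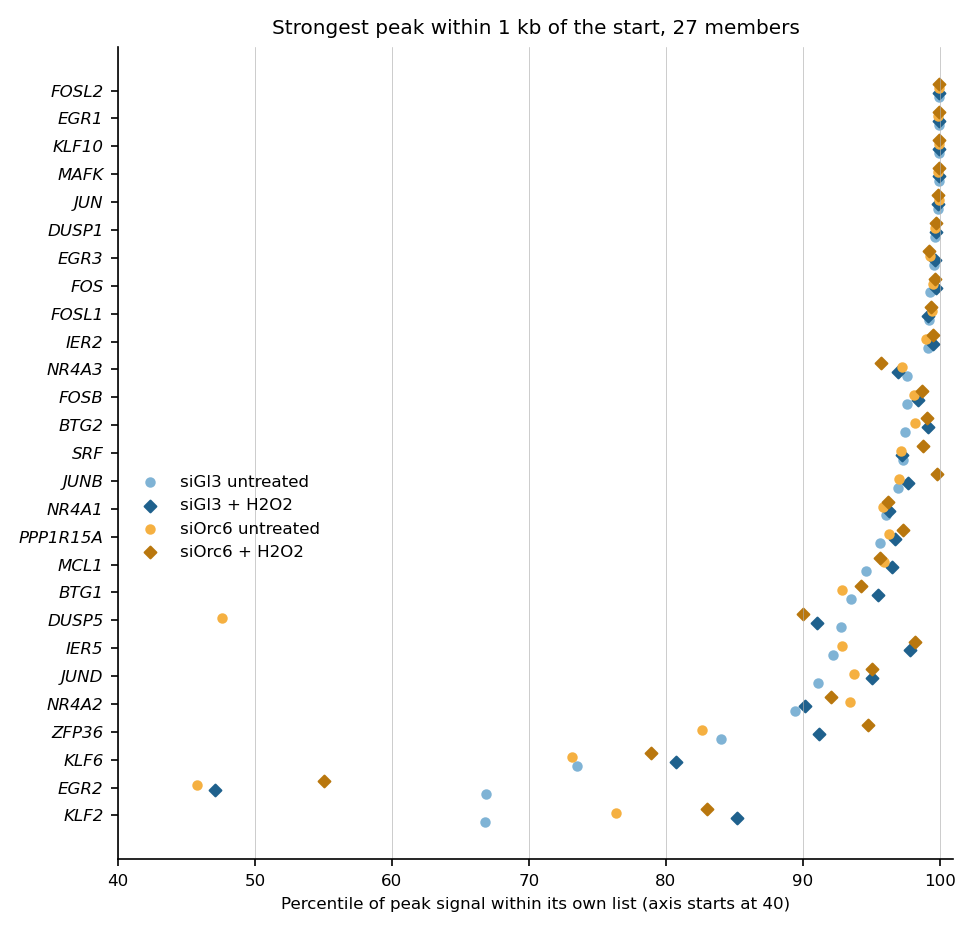
Percentile of peak signal within its own list (x axis, starting at 40) for the strongest peak within 1 kb of the start in the 27 members with such a peak in all 4 lists, with 1 point per list. Most members sit above 90 in every list, while KLF2, KLF6 and EGR2 lie lower. DUSP5 is low only in untreated siOrc6, where its stronger gene-end peaks lay outside the window.

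With H2O2, few member regions appeared or disappeared from the lists. Of 143 member regions, 101 (70.6%, interval 62.7 to 77.5%) were in all 4 lists, against 62.1% of all regions and 63.6% at protein-coding genes. Under siGl3, 12 of 119 untreated member regions (10.1%, interval 5.86 to 16.8%) were missing from the H2O2 list, against 17% of all regions and 15.5% at protein-coding genes. In the other direction, 5 of 112 H2O2 regions (4.46%) were missing from the untreated list, against 8% and 8.64%. Under siOrc6 the shares were 13 of 126 (10.3%, interval 6.13 to 16.9%), against 17% and 15.2%, and 11 of 124 (8.87%), against 7.03% and 7.56%. Untreated member regions were thus left out of the H2O2 list at a lower share than regions in general under both siRNAs, though the upper ends of the intervals lie close to the background of all regions and above that at protein-coding genes. The balance of losses and gains depended on list length, on weak peaks and on FOSL2. With the lists cut to equal length, 3.88% were lost and 9.17% gained under siGl3 and 6.96% lost and 13.7% gained under siOrc6, so gains then outnumbered losses at members. With peaks below the 25th percentile left out, 6.12% were lost and 8% gained under siGl3, and 8.74% each under siOrc6. Without FOSL2, added after seeing the data, 8.26% were lost and 3.85% gained under siGl3, and 6.42% and 8.93% under siOrc6.

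Only 4 member regions divided the lists by treatment under both siRNAs. Listed only with H2O2 were 2 regions (1.40%, against 1.45% of all regions and 1.71% at protein-coding genes). The first lay upstream of PPP1R15A, with its centre 4586 bp from the start (chr19:48867346-48868325), with 980 bp in siGl3 and 824 bp in siOrc6, and within 1 kb of the start of another protein-coding gene. The other was a 422 bp region beside MAFK (chr7:1526276-1526697), with 403 bp in siGl3 and 175 bp in siOrc6. Listed only without H2O2 were also 2 regions (1.40%, against 4.86% and 4.31%). They lay upstream of DUSP1 (chr5:172773451-172773999, 300 and 506 bp) and downstream of FOSL2 (chr2:28420487-28421125, 416 and 639 bp). The count of regions seen only with H2O2 is near the background, and the other is below it. The PPP1R15A region stood at percentiles 63.5 and 33.9, and the MAFK region, at 8.87 and 2.33, was among the weakest peaks of its lists.

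Width showed a larger departure from the rest of the genome. Of the 101 member regions in all 4 lists, 36 (35.6%, interval 27.0 to 45.4%) covered more bp with H2O2 than without under both siRNAs, against 15.5% of all regions in all 4 lists and 17.9% of those at protein-coding genes. Narrower under both were 31 (30.7%, interval 22.5 to 40.3%), against 50.2% of all and 47% at protein-coding genes. The direction at large was thus toward narrower regions with H2O2, and member regions were split about evenly. The median ratio of width with H2O2 to width untreated was 1.01 under siGl3 and 1.00 under siOrc6 for member regions, against 0.942 and 0.949 for all regions in all 4 lists. For regions at protein-coding genes it was 0.954 and 0.958. At starts the gap was smaller, with 1.02 under each siRNA for members against 0.989 and 0.987 for protein-coding genes.

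Position and size were compared within classes, since regions at starts and wide regions behaved differently from the rest. At member starts, 17 of 37 regions (45.9%) were wider with H2O2 under both siRNAs, against 25.7% of start regions of protein-coding genes, and 8 (21.6%) were narrower, against 37.8%. Among genes of known strand, 12 of 24 (50%) were wider, against 25.3% of 9910, and 5 (20.8%) narrower, against 38.2%. Away from the start, 19 of 64 (29.7%) were wider, against 15.1%, and 23 (35.9%) were narrower, against 50.3%. These sets differ, since the background leaves out all protein-coding starts and the members only their own. Some of the 64 thus lie at another gene's start. Among regions of at least 1 kb, 25 of 66 (37.9%) were wider, against 19% of all such regions, and among smaller ones 11 of 35 (31.4%), against 14.1%. The excess of wider regions was present in each class. With lists of equal length, 33.3% were wider, against 14.8% of all regions.

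**Figure D2:**
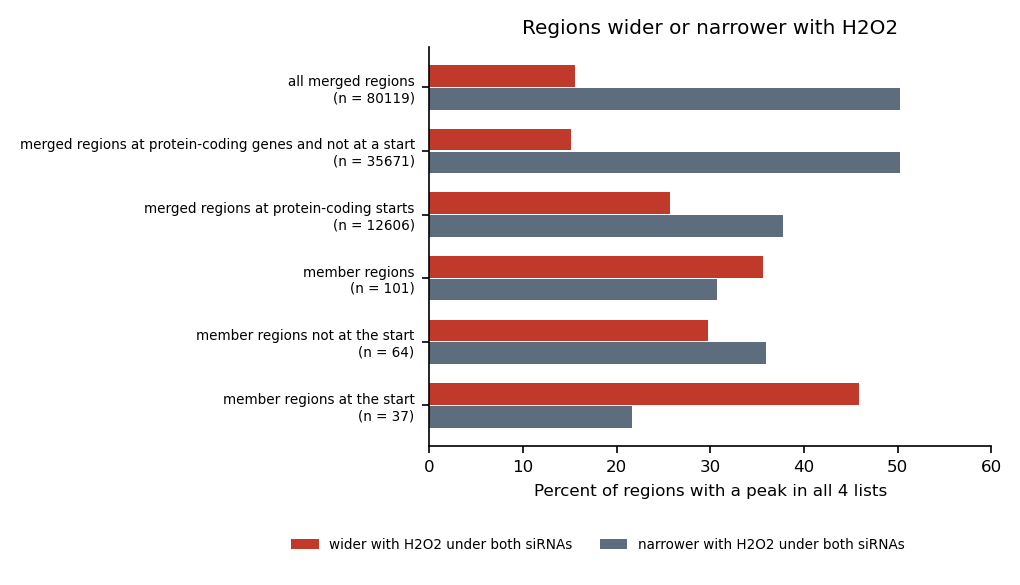
Percent of regions with a peak in all 4 lists (x axis) that were wider (red) or narrower (grey) with H2O2 under both siRNAs, for member regions and for the rest, with n given per class. Wider regions make up 45.9% at member starts and 35.6% of all member regions, against 25.7% at protein-coding starts and 15.5% of all regions.

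By gene, 19 members had at least 1 region that was wider under both siRNAs and 19 had at least 1 that was narrower, with many in both counts. A width at least 1.25 times the untreated width under both siRNAs was found in 7 member regions (6.93%, against 2.05% of all and 2.59% at protein-coding genes), at FOS, FOSL2, JUND, EGR1, DUSP5 and NR4A1. A width at most 0.8 times the untreated width was found in 8 (7.92%, against 10.1% and 9.07%), at FOSL1, FOSL2, JUND, ATF3, IER2, NR4A1 and KLF6. Per member, the bp under peaks within a gene plus its flanks were greater with H2O2 under both siRNAs in 11 of 30 members (36.7%), against 18.1% of 16588 protein-coding genes with peaks in all 4 lists. They were fewer under both in 9 (30%), against 50.9%. The median ratio was 1.02 and 1.01 for members and 0.943 under each siRNA for protein-coding genes. Members are shorter than protein-coding genes in general, so starts fill more of their windows, and these comparisons were not matched for gene length.

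**Figure D3:**
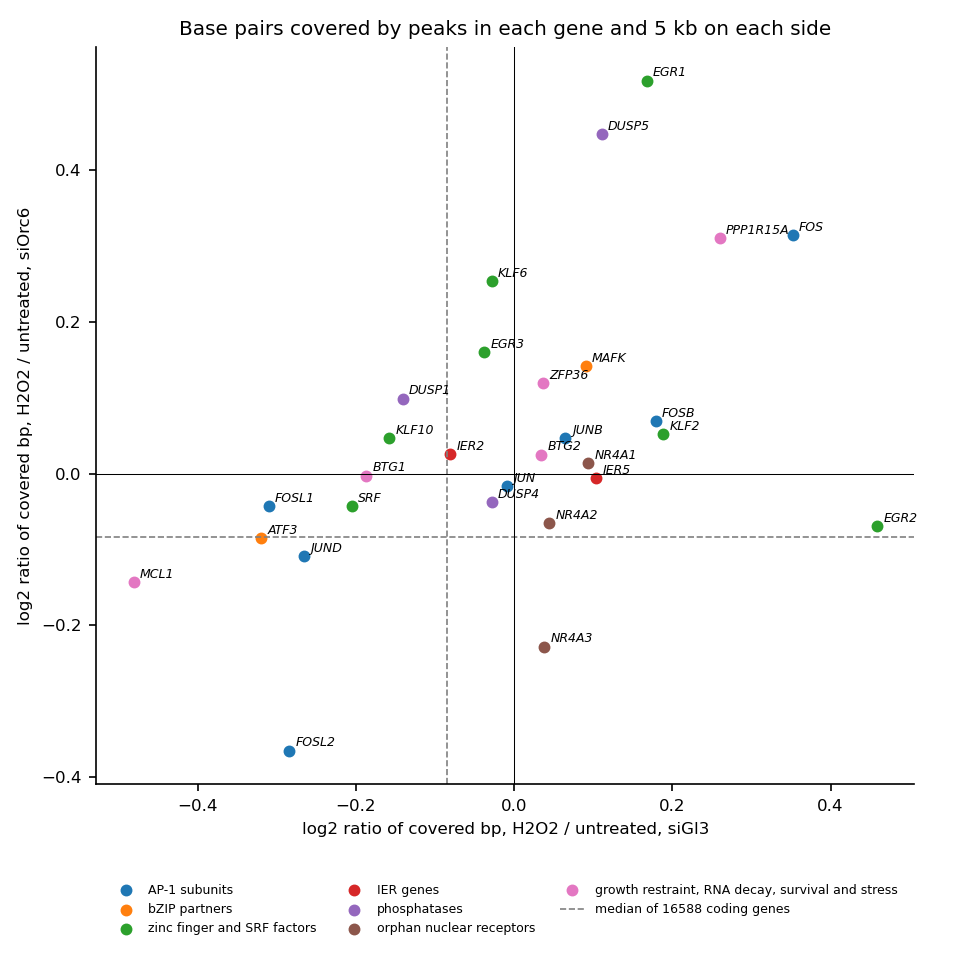
Log2 ratio, H2O2 to untreated, of the bp that peaks cover within each gene plus its 5 kb flanks, under siGl3 (x axis) and siOrc6 (y axis), with 1 point per member coloured by role and dashed lines at the medians of 16588 protein-coding genes. FOS, PPP1R15A, EGR1 and DUSP5 lie at the upper right and FOSL2 and MCL1 at the lower left, and KLF4, with ratios of 1.01 and 0.14, lies off the lower edge.

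FOS, whose protein is the founding partner of JUN in AP-1, showed the greatest covered ratio of any subunit gene under both siRNAs. Its peaks covered 4239 bp untreated and 5411 bp with H2O2 under siGl3, and 4721 and 5872 bp under siOrc6. The ratios were 1.28 and 1.24, at percentiles 93.4 and 93.7 among protein-coding genes. FOS (chr14:75278828-75282230, + strand) had 3 regions, and each was wider with H2O2 under both siRNAs. The start region measured 3208, 3464, 3533 and 3608 bp. In the gene body (chr14:75280604-75281751) the peak measured 788, 1125, 713 and 1148 bp, and downstream of the gene (chr14:75283380-75284495) 243, 822, 475 and 1116 bp. Both H2O2 values exceeded both untreated values in the body and downstream, while at the start the siGl3 H2O2 value lay between the untreated ones. The percentiles of these regions were 63.1, 80.8, 60.2 and 82.8 in the body and 25.9, 53.9, 36.7 and 70.9 downstream.

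FOSB, a close paralog of FOS, covered 4423 and 5008 bp under siGl3 and 4768 and 5001 bp under siOrc6. Its region inside the gene (chr19:45468801-45470976) measured 1727, 2079, 1862 and 2143 bp, with both H2O2 values above both untreated ones. The FOSB region across the start (chr19:45467164-45468699) measured 1244, 1485, 1430 and 1367 bp, with no direction shared by the siRNAs. JUNB covered 5521 and 5775 bp under siGl3 and 6328 and 6538 bp under siOrc6, so the siRNA groups differed by more than the treatments. Its start region lay within 1 kb of another gene's start. JUN hardly differed between lists, with 4886 and 4856 bp under siGl3 and 4975 and 4919 bp under siOrc6.

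The remaining subunit genes covered fewer bp with H2O2. FOSL1 covered 8615 and 6947 bp under siGl3 and 8972 and 8707 bp under siOrc6, and FOSL2 covered 12512 and 10272 bp under siGl3 and 18804 and 14598 bp under siOrc6. Within FOSL2 a wide body region (chr2:28408057-28411498) measured 3083, 1866, 3294 and 2564 bp, while a region nearer the start (chr2:28394344-28396085) measured 1046, 1440, 1342 and 1742 bp. JUND, the subunit gene known for steady expression, covered 3585 and 2982 bp under siGl3 and 4115 and 3815 bp under siOrc6. Neighbouring regions of JUND differed in direction, with 529, 738, 616 and 809 bp at chr19:18280059-18280870 and 656, 367, 677 and 380 bp at chr19:18279166-18280017. Over the 7 subunit genes, 11 of 26 regions in all 4 lists were wider with H2O2 under both siRNAs and 10 were narrower. Covered bp were greater under both siRNAs in FOS, FOSB and JUNB and fewer under both in FOSL1, FOSL2, JUN and JUND.

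Among the bZIP partners, MAFK covered 16135 and 17176 bp under siGl3 and 15032 and 16579 bp under siOrc6. Its gene-end region (chr7:1529805-1535376) measured 4913, 5448, 4416 and 5572 bp, and 2 peaks in each untreated list were joined into 1 in each H2O2 list. ATF3 covered fewer bp, with ratios of 0.80 and 0.94. Its body region at chr1:212579763-212580471 measured 669, 499, 647 and 462 bp.

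EGR1 gave the greatest covered ratio of any member under siOrc6. EGR1 (chr5:138465479-138469303, + strand) covered 6496 and 7297 bp under siGl3 and 5583 and 7996 bp under siOrc6, ratios of 1.12 and 1.43, at percentiles 85.2 and 97.2 among protein-coding genes. Its start region measured 4508, 4612, 3997 and 5334 bp, and the region at its 3' end (chr5:138469141-138471576) 1662, 2346, 1295 and 2324 bp. Like FOS, EGR1 had its larger relative differences beyond the start region, and both H2O2 values there stood above both untreated ones.

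Of the other zinc finger factors, KLF2 covered more under both siRNAs (2559 and 2916 bp, and 2730 and 2830 bp), and its start region measured 1060, 1269, 799 and 908 bp. EGR2, EGR3, KLF6 and KLF10 had covered ratios of 1.37 and 0.95, 0.97 and 1.12, 0.98 and 1.19, and 0.90 and 1.03 under siGl3 and siOrc6, so each pair of ratios lies on both sides of 1. For EGR2 the siGl3 ratio includes a 406 bp start peak that is listed only there (chr10:62819465-62819870). SRF covered fewer bp under both, with ratios of 0.87 and 0.97. In this group 8 of 16 regions were wider under both siRNAs and 5 narrower.

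Among the IER genes, IER5, an immediate-early gene linked to the heat shock response, had a start region (chr1:181088072-181090509) of 1968, 2312, 2131 and 2430 bp. There, 2 peaks in each untreated list were joined into 1 in each H2O2 list, and the percentile was 92.2, 97.9, 92.9 and 98.2. The neighbouring upstream region of IER5 was narrower, with 1494, 1235, 1596 and 1140 bp, and over the gene the covered ratios were 1.07 and 1.00. IER2 had ratios of 0.95 and 1.02. Fewer separate peaks with H2O2 under both siRNAs were seen in 3 of 101 member regions (2.97%, against 0.915% of all regions) and more in 2 (1.98%, against 0.668%), so neither direction stood out. At starts the share with fewer peaks was 5.41%, against 3.36% of protein-coding starts, and among regions of at least 1 kb it was 4.55%, against 2.79%.

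Among the phosphatases, DUSP5, a nuclear ERK phosphatase, covered 5638 and 6087 bp under siGl3 and 4472 and 6100 bp under siOrc6. The siOrc6 ratio of 1.36 goes with a low untreated value, since both H2O2 values nearly matched. Its body region at chr10:110499125-110499938 measured 436, 806, 366 and 535 bp. DUSP1 covered 6388 and 5794 bp under siGl3 and 6930 and 7421 bp under siOrc6, so the order of the treatments differed between siRNAs. DUSP4 had ratios of 0.98 and 0.97.

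The orphan nuclear receptor genes had covered ratios of 1.07 and 1.01 for NR4A1, 1.03 and 0.96 for NR4A2 and 1.03 and 0.85 for NR4A3, so NR4A3 covered fewer bp with H2O2 under siOrc6 alone, as did NR4A2 by a smaller margin. One region of NR4A1, 3.58 kb upstream of the start (chr12:52018900-52019601), measured 222, 702, 262 and 599 bp, ratios of 3.16 and 2.29, at percentiles 21.4, 65.9, 10.2 and 55.5. A body region of NR4A1 (chr12:52032492-52033682) measured 948, 563, 1191 and 933 bp. The strongest NR4A1 region in every list lay further inside its span (chr12:52050176-52053045) and measured 2218, 2788, 2396 and 2797 bp. In this group 4 of 17 regions in all 4 lists were wider with H2O2 under both siRNAs and 4 were narrower.

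PPP1R15A, known as GADD34, covered 4527 and 5420 bp under siGl3 and 5054 and 6268 bp under siOrc6, ratios of 1.197 and 1.24, at percentiles 90.2 and 93.6. Much of this came from the upstream region that only the H2O2 lists hold, and the start region measured 1952, 1841, 1972 and 2030 bp, with no direction shared by the siRNAs. ZFP36 covered 8729 and 8955 bp and 8988 and 9766 bp, and its start region measured 1967, 2050, 2037 and 2309 bp. BTG2, an antiproliferative gene, had ratios of 1.02 and 1.02 and BTG1, its paralog, 0.88 and 1.00. MCL1, an antiapoptotic BCL2-family gene, covered 3135 and 2246 bp under siGl3 and 2687 and 2434 bp under siOrc6, and its gene-end region measured 1757, 1730, 1875 and 1722 bp.

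**Figure D4:**
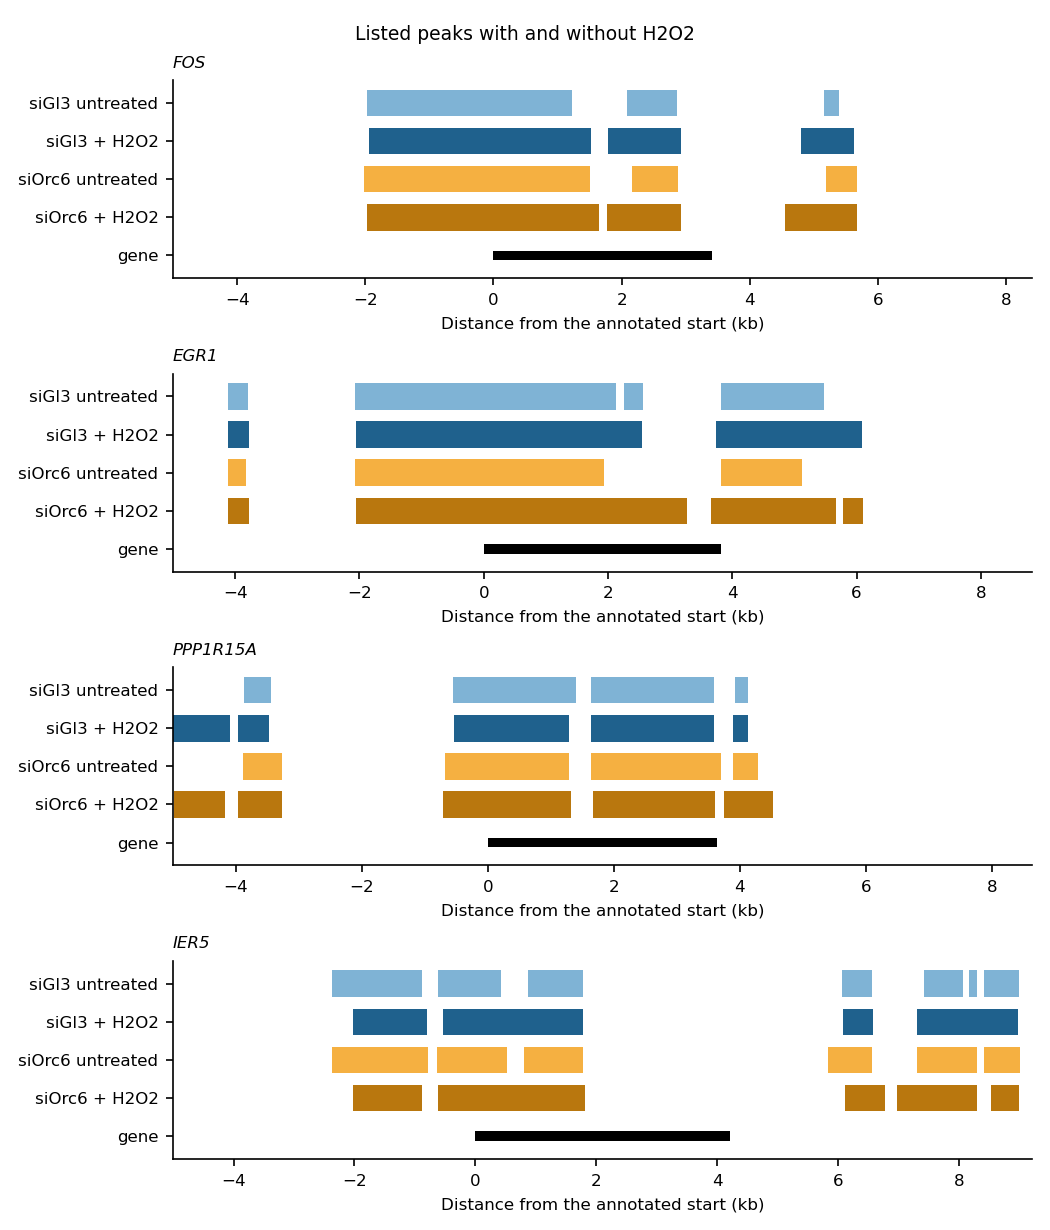
Listed peaks (bars, 1 row per list) at FOS, EGR1, PPP1R15A and IER5 by distance from the annotated start in kb (x axis), with the gene as a black bar. The body and downstream peaks of FOS and the downstream peaks of EGR1 are longer in both H2O2 rows, the upstream PPP1R15A peak stands only in those rows, and the start peaks of IER5 are joined there.

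The authors' deposited lists of regions called changed between siOrc6 and siGl3 give positions with no fold or p. A region is described as called higher where the list names more accessibility in siOrc6, and as called lower in the opposite case. Without H2O2, 17 of 143 member regions (11.9%, interval 7.56 to 18.2%) lay at a region called higher in siOrc6, against 6.85% of all regions and 6.38% of those at protein-coding genes. They belonged to 8 of 32 members (25%, against 17.5% of protein-coding genes), namely BTG1, DUSP1, FOSL1, FOSL2, IER2, IER5, KLF4 and NR4A2. FOSL2 held 7 of these regions, and without FOSL2 the share was 8% of 125 regions (interval 4.40 to 14.1%), close to the background. Within 1 kb of the start lay 4 of these members (12.5%, against 6.01% of protein-coding genes): BTG1, FOSL1, IER2 and NR4A2. Called lower in siOrc6 were 3 member regions (2.10%, against 4.74% and 4.26%), at DUSP4 and KLF6. With H2O2, no member region lay at a region called higher or lower in siOrc6, against 0.945% and 1.19% of all regions and 0.706% and 1.06% at protein-coding genes, and the interval for 0 of 143 reaches 2.62%. With 10 kb flanks, 1.10% of 182 regions lay at a region called lower with H2O2, near the background.

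Regardless of treatment, 4 member regions were listed in both siOrc6 lists and in neither siGl3 list (2.8%, against 1.53% of all regions and 1.35% at protein-coding genes). They lay at FOSL1, FOSL2, JUND and KLF6 and measured 199 to 703 bp. Listed in both siGl3 lists alone was 1 region, of 307 bp in each, at MAFK (0.699%, against 3.62% and 3.58%).

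FOSL2 (chr2:28392858-28417317, + strand) stood apart in the number of its regions. It had 18, of which 7 were in all 4 lists and 5 only in untreated siOrc6. The 4 stretches called higher lay at chr2:28398223-28400655, chr2:28408056-28412008, chr2:28414708-28415486 and chr2:28422112-28423616, all in the body or downstream and none at the start, whose region measured 4339, 4176, 4428 and 4365 bp. Covered bp were greater in siOrc6 than in siGl3 both untreated (18804 against 12512) and with H2O2 (14598 against 10272). The outermost FOSL2 region inside the 5 kb limit began 4785 bp from the gene and the nearest region outside it 5021 bp.

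NR4A2 had all 3 of its regions touched by 1 called stretch of 3886 bp (chr2:156331917-156335802), with widths of 1546, 1581, 1594 and 1572 bp, 1436, 1474, 1614 and 1541 bp, and 200, 226, 369 and 305 bp. For each, the untreated siOrc6 value was the highest. FOSL1 was called higher at a gene-end region (chr11:65898687-65900909) of 2182, 1723, 2222 and 1763 bp, and DUSP1 over 1349 bp of its body (chr5:172768466-172769814). That stretch touched the body region of DUSP1, of 829, 844, 889 and 850 bp, and the edge of its start region, of 3351, 3115, 3625 and 3513 bp, both widest in untreated siOrc6. BTG1 was called higher at its start (chr12:92144087-92146762), where widths of 2187, 2236, 2203 and 2199 bp and percentiles of 93.6, 95.5, 92.9 and 94.3 differed little. IER2 was called higher at its start (chr19:13149317-13150872), near another gene's start, with widths of 1478, 1300, 1541 and 1729 bp. IER5 was called higher downstream (chr1:181094524-181095261), with 510, 494, 737 and 672 bp. At IER2 and IER5 both siOrc6 values exceeded both siGl3 values, and at FOSL1 the H2O2 values were the lower ones under each siRNA. KLF4, a Krüppel-like factor known for its part in pluripotency, was called higher at an upstream region of 808 bp that only untreated siOrc6 lists (chr9:107491140-107491948). DUSP4 was called lower at chr8:29341271-29341746, with 475, 467, 328 and 458 bp, so the untreated siOrc6 peak was the narrowest. KLF6 was called lower upstream of its start (chr10:3786453-3787276), where its main region measured 537 and 502 bp under siGl3, was not listed in untreated siOrc6 and measured 516 bp in siOrc6 with H2O2.

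**Figure D5:**
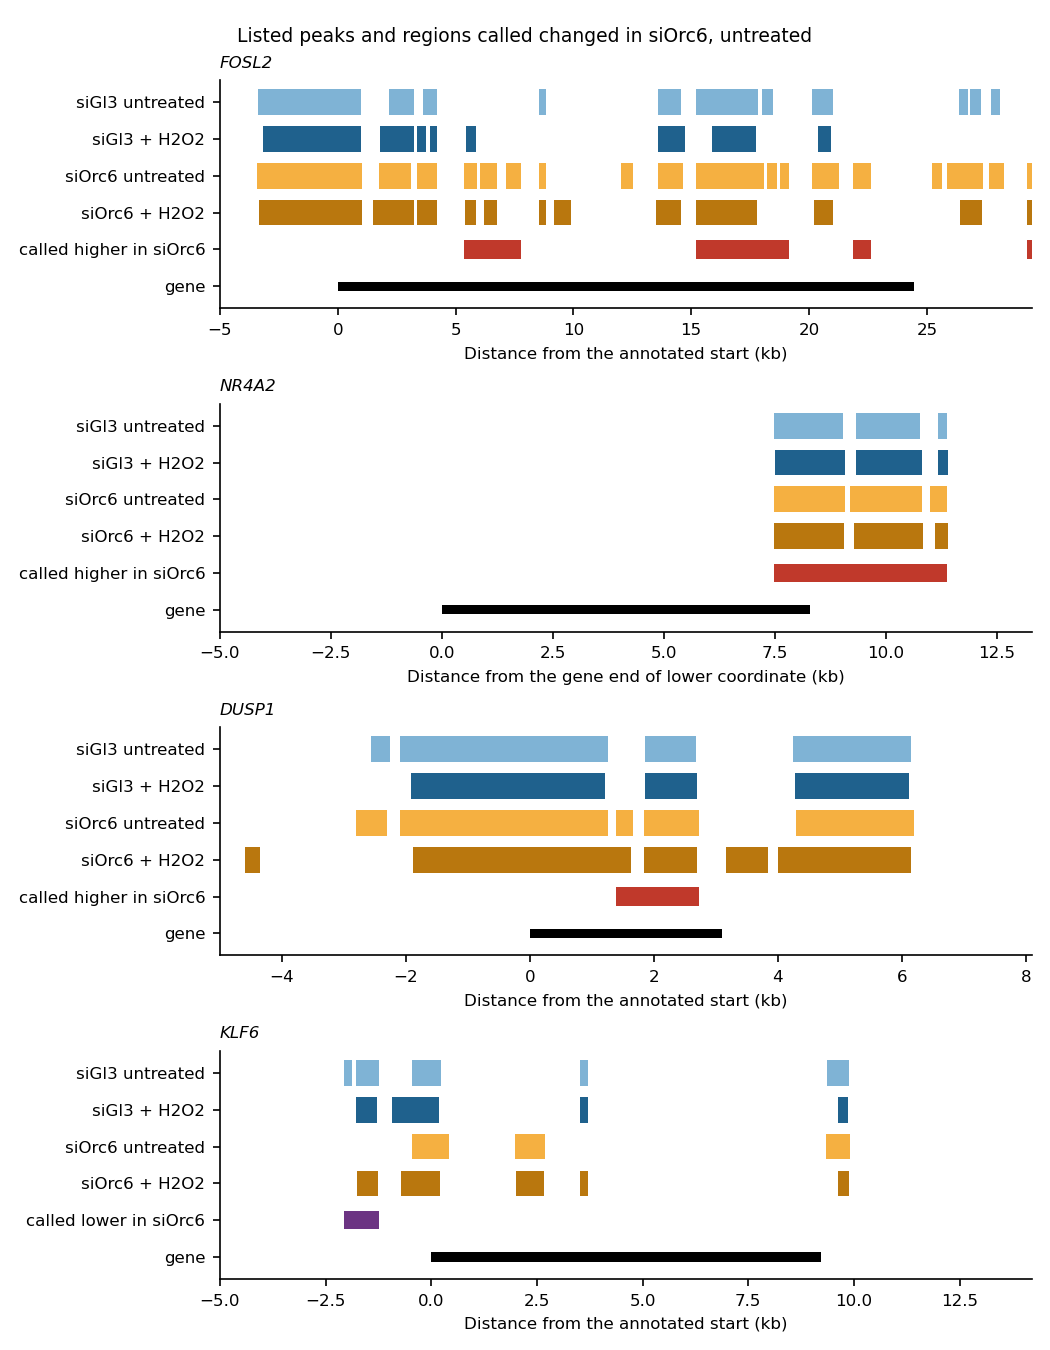
Listed peaks (bars, 1 row per list) and regions the authors called higher (red) or lower (purple) in untreated siOrc6 at FOSL2, NR4A2, DUSP1 and KLF6, by distance in kb (x axis) from the annotated start, or for NR4A2 from the gene end of lower coordinate. FOSL2 has 18 regions with 4 called stretches in its body and downstream, and the called NR4A2 stretch touches all 3 of its regions.

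Other genes of the same pathways were described by count, beside the shares over protein-coding genes. Of protein-coding genes, 17.5% had a region called higher in untreated siOrc6 and 11.8% one called lower. With H2O2 the shares were 2.38% and 3.46%. Of those with a peak in all 4 lists, 18.1% covered more bp with H2O2 under both siRNAs and 50.9% covered fewer. Of 21 other early response genes, all 21 had a start peak in all 4 lists, 7 covered more bp with H2O2 under both siRNAs and 12 covered fewer. CCN1, a secreted matrix protein gene, was called higher in untreated siOrc6 at its start, and with H2O2 elsewhere in its window. SGK1, a stress-induced kinase gene, was called lower untreated. Of 9 other AP-1 family bZIP genes, 8 had a start peak in all 4 lists, 1 covered more bp with H2O2 under both siRNAs and 4 covered fewer. Called higher in untreated siOrc6 were JDP2, an AP-1 repressor, at its start, and MAFG away from it, while MAF was called lower. BATF had no start peak. Of 20 kinases and SRF cofactors that act upstream, 19 had a start peak in all 4 lists, 4 covered more bp under both siRNAs and 8 covered fewer. Called higher untreated were 6 of the 20, among them ELK3, a ternary complex partner of SRF, at its start. Called lower untreated were 5 of the 20, namely MAP2K1, MAP3K5, MAPK14, MAPK8 and RPS6KA1. With H2O2, MAP3K5 and RPS6KA1 were called lower. MRTFB had no start peak. Genes of these lists that were not called at the start are named after their values were seen. The median covered ratios of these lists lay between 0.92 and 0.97 under both siRNAs, near the genome median of 0.943 and below those of the members.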

How the data were processed

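ATAC-seq libraries of U2OS cells were labelled siGl3 or siOrc6, untreated or with H2O2, 2 libraries per condition. The tools listed in the submitters' processing notes are Genrich, edgeR, deepTools, SAMtools, Picard, Bowtie2 and bcl2fastq 2.20, and the build is hg38. Their roles, thresholds and any shift of read positions for the transposase are not given in the sources used here. Each condition had 1 deposited peak list. Its deposited signal column is the authors' value per peak and was just above 200.0 at the lowest in every list. The deposited score column and the authors' −log10 p-value and q-value columns were not used. The authors' lists of changed regions hold positions alone.

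Peaks on chromosomes 1 to 22 and X were kept (147 to 168 per list lay elsewhere) and merged across lists where they overlapped or touched, which gave the regions. A region's width in a list is the bp its peaks cover. Medians carry binomial order-statistic intervals in the tables. Gene spans, strands and promoters came from RefSeq tables of GRCh38.p14, with strand for 23 members. Exon positions were not used here. Read depth is not given in the files.

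The members and gene lists were chosen with earlier results of these data known. Named genes were all members by role, with values per list for AP-1 subunits, members with called or treatment-specific regions, and the 5 highest and 5 lowest start percentiles; of other genes, those called at the start. Some items that these lists name are not reported here. Single regions of EGR1, FOSB, KLF2, EGR2, IER5, DUSP5, NR4A1, ZFP36, MCL1, ATF3 and MAFK were chosen after their values were seen. Merging, overlap and percentile steps were tested on simulated data. Scripts ran in Python 3.11.15 with pandas 2.3.3, numpy 2.4.6, matplotlib 3.10.9 and scipy 1.17.1.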

Additional observations from a re-analysis of the deposited data

How the results depend on the processing

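No paired analysis was possible because each condition has 1 list made from both libraries, and leaving out a library was not possible for the same reason. The split of wider and narrower member regions, the median width ratios, the shares at called regions and the count of members with a start peak stayed within the counting interval or 1.5 times of the reported values under each alternative tried for them. Wider regions made up 33.3 to 39.3% of member regions over the alternatives, against 14.8 to 15.5% of all regions. Other values moved past their interval. With lists cut to equal length, 3.88% of member regions were left out with H2O2 under siGl3 (11.5% of all regions), which lay past the interval. The 9.17% added under siGl3 (11.4% of all regions) stayed within its interval. So did the 6.96% left out and 13.7% added under siOrc6 (11.2% and 10.7%). The order of losses and gains turned round under both siRNAs. Without flanks, 4.17% of siOrc6 member regions were listed only with H2O2, and the median percentile in siOrc6 with H2O2 was 92.1 in place of 87.5. With peaks up to 500 bp apart merged, 79.6% of member regions were in all 4 lists, and 5.81% were left out and 4.71% added with H2O2 under siOrc6. Ranked by signal per bp, the median percentiles of member regions with H2O2 were 75.6 under siGl3 and 76.6 under siOrc6, in place of 88.8 and 87.5. The cause was not tested for any of these. Without FOSL2 and without NR4A2, both added after seeing the data, the share at regions called higher in untreated siOrc6 was 8% and 10.0%. Among promoters with a start peak in all 4 lists the background was 3.23% for the AP-1 element, 3.42% for the cAMP element, 1.03% for the CArG box, 9.34% for EGR elements and 3.87% for the TATA box. Without depth or separate libraries, no difference between conditions could be set against its error.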
